A study of Mus musculus with 8 samples.

Results

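Keratins are the intermediate filament proteins of epithelial cells, and their transcripts were followed here in mouse keratinocytes (KCs), the main cells of the epidermis, after 1 and 3 weeks in culture. The members were the protein-coding genes whose symbol starts with Krt and a digit, 53 of the 41457 genes in the tables, of which 28 encode type I and 25 type II keratins. The KCs were wild type C57BL/6 cells (C57BL/6J in the study's text) from the tails of adult mice, untreated and grown in serum-free, low-calcium KC medium, with 4 samples at 1 week and 4 at 3 weeks. The series is described as 4 independent experiments, and the study's text names the same batches of KCs for 1 and 3 weeks. The deposited tables carry 5 different preparation numbers, of which 3 occur at both times and 2 at 1 time only. By these numbers, the samples do not hold every preparation at both times. The cells were split when nearly confluent, so the samples hold whole cultures and no sorted layer. Exon reads numbered from 13896807 to 20026084 per sample at 1 week and from 14096649 to 18127283 at 3 weeks, and values are given as RPKM, i.e. reads scaled to exon length and sequencing depth. All 7 basal KC markers checked were present in each sample, but Krt5 and Krt14 among them are also members of the family. Trp63, a transcription factor of stratified epithelia, had 20.8 to 34.1 RPKM at 1 week and 8.79 to 19.1 RPKM at 3 weeks, a change that did not pass the test below. Itga6 had 106 to 172 RPKM at 1 week and 44.9 to 89.6 RPKM at 3 weeks. The ranges overlapped for Itgb4 (92.5 to 137 and 47.5 to 245 RPKM), Col17a1 (57.8 to 143 and 16.6 to 156 RPKM) and Cdh1 (155 to 223 and 134 to 380 RPKM). In such bulk samples, fewer cells of a kind and less RNA per cell cannot be told apart.

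Keratin filaments are built from heterodimers of 1 acidic type I and 1 basic type II chain, and the pairs used differ between epithelial layers. Cells of the basal layer of epidermis make K5 and K14, with K15 as a further type I chain, whereas suprabasal cells switch to K1 and K10. K6 and K16 or K17 are made in wounded, hyperproliferative and appendage epithelium, and K8 with K18, joined by K7, K19 and K20 in some tissues, form the filaments of simple epithelia. Other members belong to mucosa, cornea, the root sheath of hair follicles or the hair shaft, nail and scale.

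The genes lie in 2 clusters on the GRCm38 genome. The cluster on chromosome 11 spans 1037 kb (chr11:99232761-100269871) and holds 27 type I genes. The cluster on chromosome 15 (chr15:101347444-102004482) holds the 25 type II genes, and Krt18 is the only type I gene outside chromosome 11, at chr15:102028180-102032027. Krt8 and Krt18 are therefore neighbours, with 23697 bases between them, although their products are partner chains.

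The promoters of Krt8 and Krt18, the partner genes with the clearest rise, are shown together with those of Krt5 and Krt90, type II genes of the same cluster that fell. Each sequence covers the 250 bases before and the first 50 bases from the RefSeq start on GRCm38.p6, read 5′ to 3′ on the gene's strand. Capitals mark matches to 4 motifs, searched on both strands. These were TATAAA, the core promoter box, GCCNNNGGC for AP-2 factors, TGANTCA for AP-1 factors, and GGGCGG for Sp1 and its relatives. The windows are chr15:102004293-102004592 (minus strand) for Krt8, chr15:102027966-102028265 (plus) for Krt18, chr15:101712856-101713155 (minus) for Krt5 and chr15:101562901-101563200 (minus) for Krt90.
Krt8: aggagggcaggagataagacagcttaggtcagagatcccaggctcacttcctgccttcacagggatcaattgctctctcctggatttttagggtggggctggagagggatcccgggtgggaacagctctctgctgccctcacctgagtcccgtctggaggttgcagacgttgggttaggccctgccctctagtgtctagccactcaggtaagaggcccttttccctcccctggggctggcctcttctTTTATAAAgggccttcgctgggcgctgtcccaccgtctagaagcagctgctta
Krt18: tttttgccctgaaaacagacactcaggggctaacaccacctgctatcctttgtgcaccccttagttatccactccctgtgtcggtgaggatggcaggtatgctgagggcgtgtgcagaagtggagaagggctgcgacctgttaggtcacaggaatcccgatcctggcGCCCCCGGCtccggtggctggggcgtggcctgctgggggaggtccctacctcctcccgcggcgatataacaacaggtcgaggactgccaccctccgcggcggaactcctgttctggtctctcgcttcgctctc
Krt5: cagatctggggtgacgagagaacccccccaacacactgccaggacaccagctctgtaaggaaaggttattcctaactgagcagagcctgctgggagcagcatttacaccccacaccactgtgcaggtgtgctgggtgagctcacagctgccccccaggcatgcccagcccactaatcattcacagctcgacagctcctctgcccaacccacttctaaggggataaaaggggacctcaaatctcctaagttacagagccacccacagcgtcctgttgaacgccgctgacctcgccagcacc
Krt90: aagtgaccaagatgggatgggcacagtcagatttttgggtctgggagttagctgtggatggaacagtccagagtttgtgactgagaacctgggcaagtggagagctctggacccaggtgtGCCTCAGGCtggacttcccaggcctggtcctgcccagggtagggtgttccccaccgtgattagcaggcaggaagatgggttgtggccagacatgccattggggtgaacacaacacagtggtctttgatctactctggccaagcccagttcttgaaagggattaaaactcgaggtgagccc
The Krt8 window held TATAAA on both strands in 2 overlapping matches at its RefSeq start. This start lies 140 bases inside the gene of the deposited tables, so part of the Krt8 window before it belongs to the gene there. The Krt18 and Krt90 windows each held 1 AP-2 match, 83 and 130 bases before the start, and the Krt5 window held none of the 4 motifs. RefSeq promoters were found for 36 of the 53 members. TATAAA was present in 19 of the 36 (52.8%), against 13.6% of all 32851 promoters, and GGGCGG in 2 (5.56%), against 35.7%. GCCNNNGGC was found in 7 keratin promoters (19.4%, against 16.6% of all) and TGANTCA in 1 (2.78%, against 7.81%). A match is a string of letters and says nothing on binding.

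Few members carried nearly all keratin reads. No read was found for 4 members (Krt12, Krt33a, Krt33b and Krt72), where 3 reads would have given between 0.0706 and 0.132 RPKM. Including these, 30 of the 53 members had fewer than 10 reads in every sample and none of the 30 exceeded 0.27 RPKM. Of the remaining members, 21 had enough reads for the main test, while Krt4 and Krt20 did not. Krt14, Krt5, Krt17 and Krt6a together made up 91.9 to 95.2% of the summed keratin RPKM at 1 week, and 78.8 to 87.5% at 3 weeks. Keratin genes received 4.09 to 4.95% of all exon reads at 1 week and 3.30 to 4.01% at 3 weeks, so that the ranges did not overlap.

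**Figure D1:**
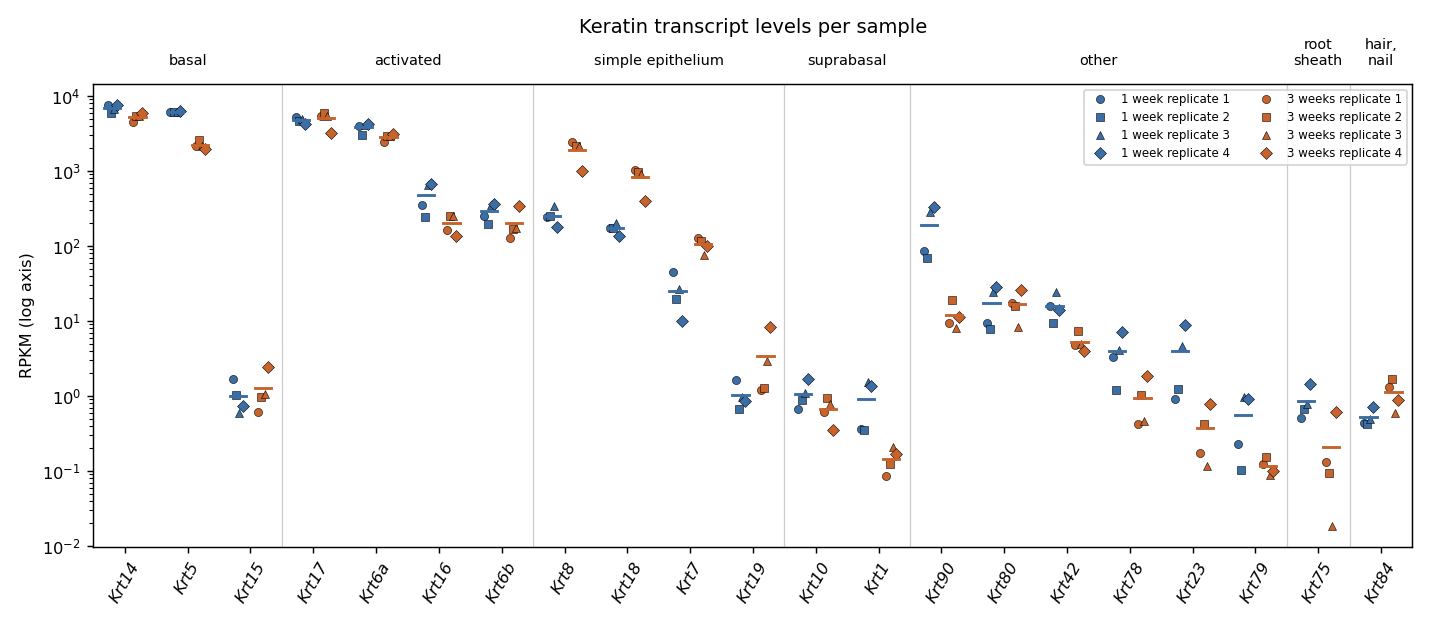
RPKM (log axis) of the 21 tested keratin genes in each of the 8 samples, ordered by group and by the mean at 1 week. Symbols stand for replicates 1 to 4, short lines for the group means. Krt8, Krt18 and Krt7 lie higher and Krt5, Krt90, Krt42, Krt23 and Krt1 lower at 3 weeks without overlap.

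Between 1 and 3 weeks, transcripts of simple epithelial keratins rose, whereas Krt5, Krt90 and a set of scarce keratins fell. Among the 21 tested members 5 were higher and 8 lower at 3 weeks with an adjusted p-value under 0.05 (edgeR quasi-likelihood test, adjusted over all 12590 tested genes). Of all tested genes 32.8% were called, 15.7% as higher and 17.0% as lower. The median log2 fold change was -0.38 over the tested members and 0.03 over all tested genes. RPKM values of the time points did not overlap for 3 members that were higher and 5 that were lower, against 37.0% of all tested genes (10.8% higher and 26.2% lower). On the log2(RPKM + 1) scale, limma called 3 members higher and 8 lower, and the median of all genes stood at -0.10 on that scale and at -0.16 on the log2(RPKM + 0.1) scale. Pseudocounts also shrink the change of scarce genes, as for Krt1, whose log2 fold change was -1.80 on the log2(RPKM + 0.1) scale and -0.67 on the log2(RPKM + 1) scale, against -2.44 in edgeR. The number of members called lower was 4 to 8 when single samples were left out. It was 5 without 1 week replicate 3, 5 without 1 week replicate 4, 4 without 3 weeks replicate 1 and 5 without 3 weeks replicate 2. Krt8, Krt18, Krt7, Krt5, Krt90, Krt42 and Krt1 passed the threshold under all 17 alternatives, and Krt23 under 16 of the 17.

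**Figure D2:**
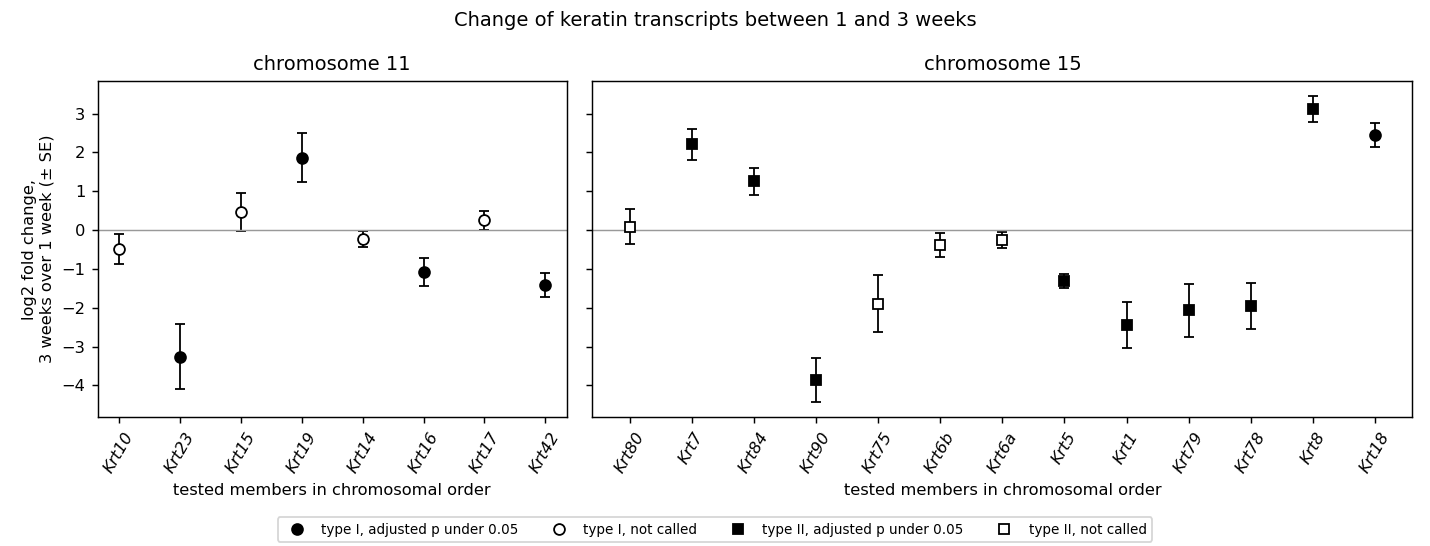
Log2 fold change (3 weeks over 1 week, ± SE, edgeR) of the 21 tested members in their order along chromosomes 11 and 15. Circles are type I and squares type II genes, and filled symbols mark an adjusted p-value under 0.05. On chromosome 15, the tested members from Krt90 to Krt78 all lie below 0, and Krt7, Krt84, Krt8 and Krt18 on either side of them above 0.

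All 4 tested members of the simple epithelial group were called higher, Krt19 only narrowly, with a median log2 fold change of 2.33. Krt8, the type II chain of simple epithelia, had 242, 253, 337 and 179 RPKM in replicates 1 to 4 at 1 week, and 2416, 2183, 2135 and 987 RPKM at 3 weeks. The lowest sample at 3 weeks thus exceeded the highest at 1 week, and 3 weeks replicate 4 stood below the other samples of its time point. The log2 fold change was 3.11 ± 0.34 (SE), an 8.62-fold rise (adjusted p = 0.000422). Its partner Krt18 rose from 173, 174, 201 and 137 RPKM to 1041, 964, 910 and 403 RPKM. This was a log2 fold change of 2.45 ± 0.31 (adjusted p = 0.000687), again with the lowest value at 3 weeks in replicate 4. Krt7, a type II keratin of glandular and ductal epithelia, had 44.3, 19.7, 26.6 and 10.1 RPKM at 1 week and 128, 117, 75.4 and 99.7 RPKM at 3 weeks. Its log2 fold change was 2.21 ± 0.40 (adjusted p = 0.00357), and the groups did not overlap.

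Krt19, a small type I keratin, stood far below Krt18 and varied more. It had 1.61, 0.68, 0.98 and 0.86 RPKM at 1 week and 1.19, 1.28, 2.95 and 8.26 RPKM at 3 weeks. The groups overlapped, and 3 weeks replicate 4, which was lowest for Krt8 and Krt18, was highest here. The log2 fold change of 1.87 ± 0.63 passed the threshold narrowly (adjusted p = 0.0491). It was 1.02 without 3 weeks replicate 4 (adjusted p = 0.115), and the call was also lost without any sample of 1 week or without 3 weeks replicate 3 (adjusted p up to 0.118). Krt19 passed under 6 of 17 alternatives. It failed in edgeR with reads mapped to 1 place (adjusted p = 0.0521), and with limma on log2(RPKM + 0.1) (0.12) and log2(RPKM + 1) (0.146). Krt20, known from intestinal epithelium and Merkel cells, was too scarce for the test. Its reads numbered 1, 0, 1 and 0 at 1 week and 19, 12, 16 and 8 at 3 weeks, and every sample at 3 weeks lay above every sample at 1 week. The rate over the pooled reads (2 against 55) was 29.8-fold higher, with an exact 95% interval of 7.86 to 252 that covers counting error only. Without the filter on low counts, Krt20 had an adjusted p of 0.0012. The other Merkel cell markers Atoh1, Isl1 and Chga had at most 1 read and Sox2 at most 2 reads in any sample, and Piezo2 reached at most 0.111 RPKM.

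Of the basal keratins, Krt5 fell while Krt14 and Krt15 did not pass the test. Krt5 had 6039 to 6384 RPKM at 1 week and 1938 to 2581 RPKM at 3 weeks, a log2 fold change of -1.32 ± 0.18 (adjusted p = 0.00103). Krt14 had the highest mean of all keratins at both times, at 6941 ± 843 RPKM (SD, n = 4) at 1 week and 5283 ± 606 RPKM at 3 weeks, with overlapping samples. Its log2 fold change was -0.23 ± 0.20 (adjusted p = 0.414). Krt15, found in basal cells and in the hair follicle bulge, was scarce, with 1.69, 1.02, 0.59 and 0.74 RPKM at 1 week and 0.61, 0.96, 1.07 and 2.47 RPKM at 3 weeks. Its log2 fold change of 0.47 ± 0.48 (adjusted p = 0.492) was -0.02 without 3 weeks replicate 4.

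Among the keratins of activated epithelium, Krt16 passed the test and Krt6a, Krt6b and Krt17 did not. Krt16 had 353, 243, 653 and 669 RPKM at 1 week and 162, 248, 253 and 137 RPKM at 3 weeks. Replicates 3 and 4 of 1 week were the highest, and replicate 2 of 1 week lay within the range at 3 weeks. The log2 fold change was -1.08 ± 0.37 with an adjusted p of 0.0492, and the call was lost without any one of 1 week replicates 1, 3 and 4 and 3 weeks replicates 1, 2 and 4 (adjusted p up to 0.129). Krt17 had 5221, 4581, 4913 and 4207 RPKM at 1 week and 5463, 5994, 5380 and 3183 RPKM at 3 weeks, where its mean stood next to that of Krt14 within the spread of the samples (log2 fold change 0.25 ± 0.24, adjusted p = 0.46). Krt6a had 2972 to 4254 RPKM at 1 week and 2413 to 3153 RPKM at 3 weeks (log2 fold change -0.25 ± 0.20, adjusted p = 0.37). Krt6b, a near copy of Krt6a, had 253, 195, 357 and 361 RPKM at 1 week and 127, 166, 173 and 337 RPKM at 3 weeks (log2 fold change -0.38 ± 0.32, adjusted p = 0.384). Replicate 4 was again apart at 3 weeks, lowest for Krt17 and Krt16 and highest for Krt6b.

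The suprabasal keratins were nearly silent at both times. Krt1, Krt2, Krt9, Krt10 and Krt77 summed to 1.22 to 3.14 RPKM at 1 week and 0.672 to 1.18 RPKM at 3 weeks, against 6632 to 13954 RPKM for the basal group over all samples. Krt1 had 0.37, 0.35, 1.55 and 1.36 RPKM at 1 week and 0.09, 0.12, 0.21 and 0.17 RPKM at 3 weeks. It fell by 2.44 ± 0.59 on the log2 scale (adjusted p = 0.0132) without overlap of the groups. Its type I partner Krt10 had 0.67, 0.87, 1.09 and 1.66 RPKM at 1 week and 0.61, 0.95, 0.78 and 0.35 RPKM at 3 weeks. The log2 fold change of Krt10 was -0.49 ± 0.39 (adjusted p = 0.366). Krt2, Krt9 and Krt77 had at most 3, 1 and 8 reads in any sample.

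The largest fall among the tested members was that of Krt90, a type II gene, which had 85.9, 69.1, 283 and 332 RPKM at 1 week and 9.40, 18.8, 8.10 and 11.4 RPKM at 3 weeks. This was a 14.5-fold fall (log2 fold change -3.86 ± 0.57, adjusted p = 0.00134), with no overlap between the time points and with the highest values in replicates 3 and 4 of 1 week. Krt23, a type I gene, also had its highest values in these replicates, with 0.91, 1.24, 4.63 and 8.91 RPKM at 1 week and 0.17, 0.43, 0.12 and 0.78 RPKM at 3 weeks (log2 fold change -3.25 ± 0.84, adjusted p = 0.0173, and 0.0514 without 3 weeks replicate 1). Krt42, a type I gene at the end of the chromosome 11 cluster, fell from 15.7, 9.47, 24.4 and 13.9 RPKM to 4.81, 7.45, 4.94 and 3.94 RPKM (log2 fold change -1.42 ± 0.31, adjusted p = 0.00765). Krt78 had 3.35, 1.20, 4.15 and 7.21 RPKM at 1 week and 0.42, 1.03, 0.46 and 1.84 RPKM at 3 weeks, and Krt79, known from the upper hair follicle, had 0.23, 0.10, 0.98 and 0.92 RPKM at 1 week and 0.12, 0.15, 0.09 and 0.10 RPKM at 3 weeks. Both had overlapping groups and adjusted p-values nearer to the threshold, namely 0.0336 for Krt78 (log2 fold change -1.96 ± 0.60) and 0.0454 for Krt79 (-2.07 ± 0.68). The call of Krt78 was lost without any one of 1 week replicates 1, 3 and 4 and 3 weeks replicates 1 to 3 (adjusted p up to 0.0947), and that of Krt79 without 1 week replicate 3 or 4 or any sample of 3 weeks (up to 0.12). In contrast, Krt84, a type II hair and nail keratin, rose from 0.44, 0.42, 0.50 and 0.71 RPKM to 1.30, 1.68, 0.60 and 0.88 RPKM (log2 fold change 1.25 ± 0.34, adjusted p = 0.0209), with overlap of the groups. This call was lost without any one of 1 week replicates 1 to 3 and 3 weeks replicates 1 and 2 (adjusted p up to 0.0663).

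Keratins of hair shaft, nail and scale, 15 genes in all, never exceeded 1.96 RPKM in sum, and those of the root sheath, 8 genes, never exceeded 1.52 RPKM. Krt87, a hair keratin with at most 9 reads in any sample, was too scarce for the main test. It lies outside the rule for naming untested members (at least 10 reads in a sample) and was named after its values were seen. Its reads numbered 0, 1, 1 and 0 at 1 week and 7, 5, 6 and 9 at 3 weeks. Without the filter on low counts, edgeR gave a log2 fold change of 3.66 ± 0.80 (adjusted p = 0.00788). Of the read-length windows in its transcripts, 31.4% also occurred in another gene, and 63.0% of its reads at 3 weeks mapped to 1 place. Krt75, a keratin of the companion layer, was the only tested member of the root sheath group and did not pass (log2 fold change -1.90 ± 0.73, adjusted p = 0.0764). It passed under 6 of 17 alternatives, namely DESeq2, limma on either RPKM scale, both blocks, and without 3 weeks replicate 4 (-3.17, adjusted p = 0.00385). Krt80, a widespread type II keratin, had 7.79 to 28.7 RPKM at 1 week and 8.25 to 25.6 RPKM at 3 weeks (log2 fold change 0.09 ± 0.45, adjusted p = 0.906). Krt4, a keratin of mucosa, had 8, 1, 6 and 12 reads at 1 week and 1, 0, 0 and 35 reads at 3 weeks, so that nearly all of its reads at 3 weeks came from replicate 4. Krt4 was too scarce for the main test and was not called in edgeR without the filter on low counts (log2 fold change 0.67 ± 1.23, adjusted p = 0.731). The pooled rate ratio of 1.44 had an exact 95% interval of 0.852 to 2.47, which covers counting error only and not the spread between samples.

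Within the keratin transcripts, the share of basal keratins was lower and that of simple epithelial keratins higher at 3 weeks in each sample. Of the summed keratin RPKM, basal keratins made up 56.7 ± 1.91% (SD, n = 4) at 1 week and 40.5 ± 5.51% at 3 weeks, and simple epithelial keratins 1.96 ± 0.45% and 15.2 ± 4.28%. The ranges of both groups were separate between the time points. Keratins of activated epithelium made up 40.3 ± 1.41% at 1 week and 44.2 ± 1.53% at 3 weeks, with overlap. In 3 weeks replicate 4, the basal share was the highest of its time point (48.5%) and the simple epithelial share the lowest (9.24%). No test was made on these sums.

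**Figure D3:**
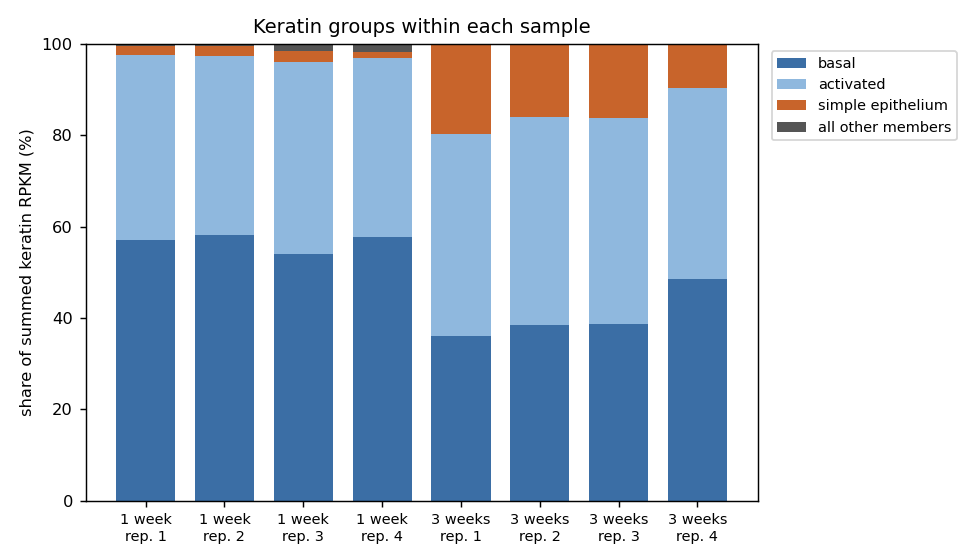
Share of the summed keratin RPKM (%) in each sample, stacked by group. Basal keratins take at least 54.0% in the samples of 1 week and at most 48.5% in those of 3 weeks, and simple epithelial keratins 1.35 to 2.39% and 9.24 to 19.5%.

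Type I and type II chains enter a filament in equal numbers, and their transcripts were summed by type. Type I genes summed to 12346 ± 1072 RPKM at 1 week and 11329 ± 1253 RPKM at 3 weeks, and type II genes to 10781 ± 871 RPKM and 7334 ± 608 RPKM. The ratio of type II to type I RPKM was 0.807, 0.881, 0.893 and 0.917 at 1 week and 0.653, 0.638, 0.627 and 0.678 at 3 weeks. The ratio was thus lower in each sample at 3 weeks than in any at 1 week. With reads mapped to 1 place only, type II genes made up 38.4 ± 1.501% at 1 week and 27.6 ± 0.68% at 3 weeks.

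For 5 textbook partner pairs, the log2 ratio of type II to type I RPKM was compared between the time points by a two-sided exact permutation test, adjusted over the 5 pairs. With 70 arrangements the smallest possible p is 0.0286 before adjustment. Krt5/Krt14 had ratios of 0.811, 1.03, 0.902 and 0.843 at 1 week and 0.485, 0.481, 0.399 and 0.327 at 3 weeks, and Krt8/Krt18 had ratios of 1.40, 1.45, 1.68 and 1.31 at 1 week and 2.32, 2.26, 2.35 and 2.45 at 3 weeks. Neither pair overlapped between the time points, and both reached the smallest p (exact permutation p = 0.0286, adjusted p = 0.0714). The differences in log2 ratio were -1.10 for Krt5/Krt14 and 0.69 for Krt8/Krt18, and the Krt8/Krt18 ratio of 3 weeks replicate 4 lay with the others although both of its genes were low there. Krt1/Krt10 had a difference of -1.70 (p = 0.0571, adjusted p = 0.0952 in the exact test), Krt6a/Krt16 of 0.77 (p = 0.114, adjusted p = 0.143, exact) and Krt6b/Krt17 of -0.64 (p = 0.257 in the exact test before and after adjustment). The groups of these 3 pairs overlapped. No pair passed a threshold of 0.05 after adjustment. The adjusted value of a pair at the smallest p depends on how many of the 5 pairs reach that p. Krt5/Krt14 and Krt8/Krt18 could therefore not pass unless a further pair reached it too.

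**Figure D4:**
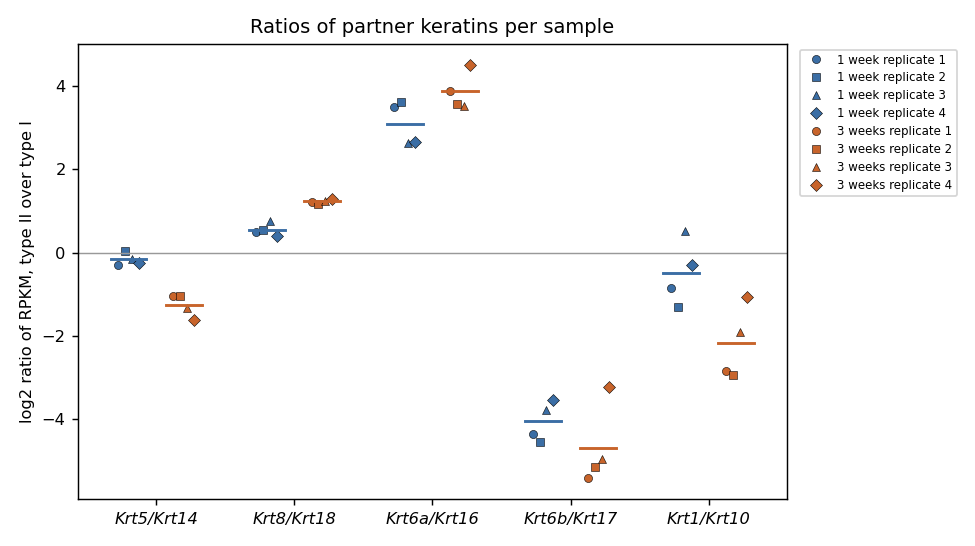
Log2 ratio of type II to type I RPKM for 5 partner pairs in each sample, with short lines for the means. Samples of 1 and 3 weeks are separate for Krt5/Krt14 and Krt8/Krt18 and overlap for the other 3 pairs.

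How far reads of near copies can be told apart differed between members. Over all samples, 34.5% of the exon reads on Krt6a and 23.9% of those on Krt6b mapped to 1 place. In the GENCODE M21 transcripts, 55.1% of the windows of 59 bases (the read length) in Krt6a and 46.6% of those in Krt6b occurred in another gene, mostly in each other. Krt8 had 48.6% of reads mapped to 1 place and shared 25.2% of its windows with the pseudogene Krt8-ps. Krt80 had 15.6%, although only 2.44% of its windows occurred in another annotated transcript. Krt5, Krt14 and Krt16 had 85.5 to 86.6%, and Krt17, Krt90, Krt7 and Krt18 at least 96.5%. With reads mapped to 1 place alone, log2 fold changes were 3.09 for Krt8 (adjusted p = 0.000396), -0.27 for Krt6a (adjusted p = 0.298) and -0.53 for Krt6b (adjusted p = 0.533). Whether reads were counted by strand is not given in the sources used here, and Krt5, Krt6a, Krt6b, Krt7, Krt8, Krt10, Krt75, Krt80 and Krt90 overlap genes on the opposite strand, so reads of these cannot be told apart from antisense transcripts.

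**Figure D5:**
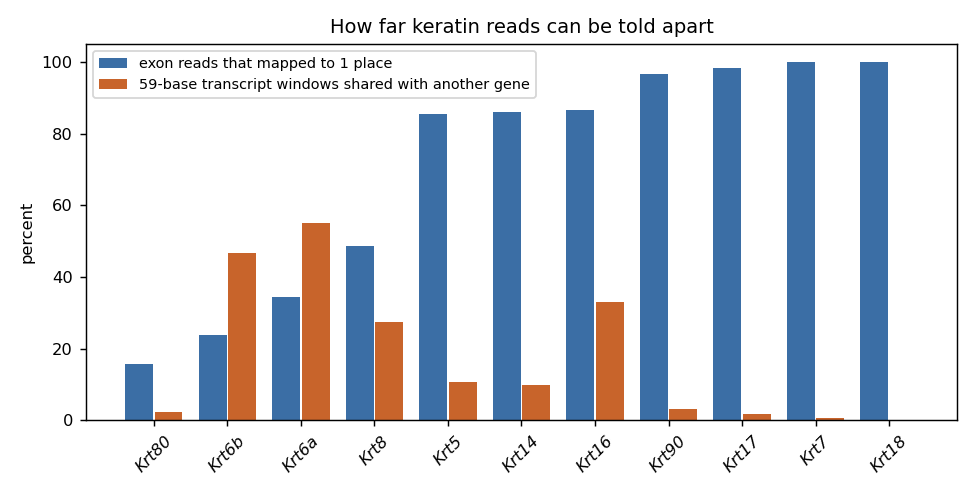
Percent of exon reads that mapped to 1 place (blue) and percent of 59-base transcript windows found in another gene (orange) for the 10 members with a mean of at least 100 RPKM at either time and for Krt80. Krt6a and Krt6b have the lowest percentages of uniquely mapped reads after Krt80.

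An order of the calls along chromosome 15 was noticed after the values were seen. From Krt90 to Krt78, a stretch of 402 kb with 15 members, each tested gene had a negative log2 fold change, and Krt90, Krt5, Krt1, Krt79 and Krt78 were called lower. Krt7 and Krt84 on one side and Krt8 and Krt18 on the other were called higher. On chromosome 11, Krt23, Krt16 and Krt42 were called lower and Krt19 higher. In the plot of fold changes by chromosomal order, Krt80 at the outer end of the type II cluster lies at 0.09.

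Samples of one time point differed from each other in a way shared by many members. Replicates 3 and 4 of 1 week both exceeded replicates 1 and 2 for 12 of the 21 tested members (57.1%), against 31.5% of all tested genes. Among the samples of 3 weeks, replicate 4 was the highest for 9 and the lowest for 7 of the 21 members, i.e. at an extreme for 76.2%, against 72.5% of all tested genes. Among the basal KC markers outside the keratins, Itga6 was called lower (edgeR log2 fold change -0.75, adjusted p = 0.0391). This call was lost when a sample was left out (adjusted p up to 0.107) and with the replicate block (0.104). Trp63, Itgb4, Col17a1 and Cdh1 were not called, with log2 fold changes of -0.69, 0.40, 0.05 and 0.58. Melanocyte markers summed to 3.25 to 20.8 RPKM at 1 week and 1.28 to 5.58 RPKM at 3 weeks. Of these, Pmel was called lower (log2 fold change -2.06, adjusted p = 0.0266, and up to 0.0751 when a sample was left out), and Dct, Tyrp1 and Mlana were not called. Fibroblast markers summed to 2.70 to 4.49 RPKM and 2.30 to 4.65 RPKM, T cell markers to at most 0.0941 RPKM, endothelial markers to at most 0.548 RPKM, and Langerhans cell markers to 1.53 to 2.75 RPKM and 3.65 to 8.95 RPKM. Of the last, H2-Ab1 was called higher (log2 fold change 2.74, adjusted p = 0.000801), Cd74 and H2-Aa were not called (0.11, adjusted p = 0.878, and -0.30, adjusted p = 0.633), and Cd207 had no read. Gland markers, with Krt79 among them, reached at most 1.61 RPKM in sum. Hair follicle markers, with Krt71 and Krt75 among them, reached at most 2.06 RPKM. Of the follicle markers, Cd34 was called lower (log2 fold change -1.91, adjusted p = 0.00721). The part of these cells in the keratin values was not tested.

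Lists of genes whose products bind, anchor or regulate keratins were read from the same fit. Of 21 filament partners, i.e. desmosomal plaque proteins, plakins, filaggrin-type matrix proteins and keratin-binding proteins, 18 were tested, and 1 was called higher and 1 lower, against 32.8% of all tested genes called in either direction. Some partners varied widely at 3 weeks, such as Ppl (1.76 to 95.4 RPKM, log2 fold change 2.16 ± 1.06), Evpl (0.582 to 29.2 RPKM, 1.42 ± 0.96) and Dsp (14.1 to 296 RPKM, 1.21 ± 0.73). Others varied less, such as Pkp3 (0.09 ± 0.12). For the former, a missing call does not show an unchanged level. Eppk1, the keratin-binding plakin epiplakin, had 1.75 to 2.44 RPKM at 1 week and 0.938 to 13.05 RPKM at 3 weeks (log2 fold change 1.84 ± 0.60, adjusted p = 0.0438), with overlap. Csnk1a1, casein kinase 1 alpha, had 64.8 to 83.0 RPKM at 1 week and 45.5 to 48.8 RPKM at 3 weeks (log2 fold change -0.51 ± 0.14, adjusted p = 0.0215). The call of Eppk1 was lost without any sample of 1 week or without 3 weeks replicate 1 or 4 (adjusted p up to 0.107), and that of Csnk1a1 without 1 week replicate 2 or 3 weeks replicate 1 or 2 (up to 0.064).

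Of 16 other intermediate filament genes, 8 were tested, 2 called higher and 2 lower, against 15.7% and 17.0% of all tested genes. The nuclear lamin Lmnb1 had 17.1 to 36.6 RPKM at 1 week and 3.93 to 5.98 RPKM at 3 weeks (log2 fold change -2.29 ± 0.29, adjusted p = 0.000717), and Lmnb2 had 4.55 to 7.26 RPKM and 3.22 to 3.76 RPKM (log2 fold change -0.63 ± 0.20, adjusted p = 0.0373). The call of Lmnb2 was lost without any one of 1 week replicates 3 and 4 and 3 weeks replicates 1, 2 and 4 (adjusted p up to 0.101). The neurofilament genes Nefl and Nefm, named after their values were seen, rose at low levels, with at most 1.33 and 1.75 RPKM at 3 weeks and log2 fold changes of 1.94 and 3.04. Of the Nefl reads 6.37% mapped to 1 place, and its call was lost without 1 week replicate 4 or 3 weeks replicate 1 (adjusted p up to 0.0549). Of 25 known or proposed regulators of keratin genes, 23 were tested, none was called higher and 4 were called lower, a number near the 17.0% of all tested genes called lower. These were Ovol1, a repressor of epidermal progenitor genes (log2 fold change -2.33 ± 0.45, adjusted p = 0.00472), the zinc finger factor Gata3 (-1.08 ± 0.30, adjusted p = 0.0219), and the AP-2 factors Tfap2c (-0.38 ± 0.12, adjusted p = 0.037) and, named after its values were seen, Tfap2b (-0.91 ± 0.20, adjusted p = 0.00805). For Trp63 the log2 fold change was -0.69 ± 0.27 (adjusted p = 0.0809), so it was not called. The call of Gata3 was lost without 1 week replicate 4 or 3 weeks replicate 1 or 2 (adjusted p up to 0.0637), and that of Tfap2c without 1 week replicate 1, 2 or 4 or 3 weeks replicate 1 or 2 (up to 0.101).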

How the data were processed

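Poly(A) RNA of 8 KC cultures was sequenced as single reads of 59 bases. The authors trimmed the reads and aligned them to GRCm38 in the CLC Genomics Workbench, and deposited per gene the raw counts of total and unique exon reads, without normalization, and RPKM values written with decimal commas. Other columns were not used. The annotation release and the use of strand are not given in the sources used here.

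Total exon read counts of all 8 samples were compared with edgeR 4.0.16 (R 4.3.3, filterByExpr, TMM, glmQLFTest), with Benjamini-Hochberg adjustment over all tested genes and a threshold of 0.05. The main test was unpaired, as are the t-tests named in the study's general statistics. These do not settle the pairing of the cultures, since the study names the same batches of KCs for both times. Only 3 of 5 preparation numbers occur at both times, and blocks were run as alternatives. Standard errors were derived from the F statistics. Partner ratios were tested by exact permutation. On simulated counts for 12465 genes, 88 of 100 genes changed 4-fold and 30 of 100 changed 2-fold were recovered, with 4 false calls. Replicates of a time point differed by more than sampling noise (chi-square per degree of freedom at least 15.4). Depth ranged from 13896807 to 20026084 exon reads, so 3 reads correspond to about 0.1 RPKM for most members, and intervals cover counting error only.

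Members, groups and lists were chosen with earlier results of these data known. Named genes are the members called, members with a mean of at least 100 RPKM at either time, all basal, suprabasal, activated and simple epithelial members, untested members with at least 10 reads in a sample, and up to 8 called genes of at least 10 CPM per list. Alternatives were DESeq2 1.42.0, TMM without keratins, upper-quartile normalization, no filter, unique reads, limma 3.58.1 on log2(RPKM + 0.1) and log2(RPKM + 1), a replicate block, a block by the preparation numbers that occur at both times, and leaving out each sample. Promoters came from RefSeq (GRCm38.p6) and transcripts from GENCODE M21. Figures were drawn with matplotlib 3.10.9 in Python 3.11.15.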

Additional observations from a re-analysis of the deposited data

Results flagged for a closer look

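Krt4 in 3 weeks replicate 4 stood apart from the other samples of its time point, with 1.12 RPKM against 0 to 0.0252 RPKM in the other samples, a gap of 0.977 of the whole range. This was the only one of 78 sets of 4 samples in which a single sample passed Dixon's test. Since chance passes about 1 in 20, the number of flagged sets is no more than chance would give. That number does not tell whether the Krt4 value itself arose by chance, and its cause was not tested. The values rest on 1, 0, 0 and 35 reads in replicates 1 to 4.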

How the results depend on the processing

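Of the values with a test or description, the direction of every called keratin held under the alternatives run for it. Numbers of members called moved by over 1.5 times under few settings. The number called higher was 3 with limma on log2(RPKM + 1), 3 with the replicate block and 3 with the block of 3 preparations, against 5, and it was 4 to 5 when samples were left out in turn. The number called lower was 4 to 8 when samples were left out and 7 with the replicate block. Same-numbered samples did not deviate together (correlations of deviations from -0.23 to 0.25), and the main test did not take the replicate numbers as pairs. The block lost Krt84, Krt79, Krt19 and Krt16 (adjusted p of 0.0693, 0.145, 0.119 and 0.0887) and gained Krt75 (0.0298). The preparation numbers, which join other samples than the replicate numbers, did not show pairs in every case either (correlations from -0.23 to 0.25 for the 3 preparations found at both times). Their block, on 6 samples, lost Krt19 (log2 fold change 1.13, adjusted p = 0.300) and Krt84 (0.0663), gained Krt75 (0.0321) and called 9 members lower. With unique reads the activated share rose by 6.67 percentage points and the type II share moved by -10.8, against 3.89 and -7.28 with RPKM. Of members that were not called, Krt80 changed sign with unique reads (-0.042) and ranged from -0.17 to 0.43 when samples were left out, and Krt15 from -0.023 to 0.83. Differences in log2 ratio ranged from -1.17 to -0.98 for Krt5/Krt14, from 0.64 to 0.76 for Krt8/Krt18, from 0.56 to 0.94 for Krt6a/Krt16, from -1.13 to -0.40 for Krt6b/Krt17 and from -2.07 to -1.37 for Krt1/Krt10 when samples were left out. Their adjusted p then fell to 0.0476 (exact permutation test) for Krt5/Krt14 and Krt8/Krt18 without 1 week replicate 2 or 3 weeks replicate 4, for Krt6a/Krt16 without 1 week replicate 2 and for Krt1/Krt10 without 3 weeks replicate 4. For Krt5/Krt14 and Krt8/Krt18, this fall followed from the adjustment, since a further pair then also reached the smallest possible p. It does not show a clearer difference of these 2 pairs. The causes were not tested. The 30 members under 10 reads in every sample were too scarce for the main test, and changes of 2-fold were mostly missed in simulated counts.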
